A study of Danio rerio with 4 samples.

Results

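The 10 genes described here encode proteins of fatty acid uptake and oxidation: cpt1aa, cpt1b, cpt2, acadm, acadvl, hadhaa, hadhb, fabp3, cd36 and ppargc1a. They were listed by name and matched to Ensembl gene IDs by symbol, and all 10 were found among the 32520 gene IDs of the count tables. The gene cpt1aa was matched as CPT1A, without its copy letter (ENSDARG00000059770), and its other copy, cpt1ab, has an ID of its own. Zebrafish of the Ekkwill strain gave 4 heart RNA-seq libraries, 1 for each group. Wild-type fish (LEN+/+) and fish homozygous for a deletion of LEN (LEN[delta]/[delta]) were sampled uninjured and 3 days post-amputation (3 dpa). LEN is an enhancer linked to the leptin b gene, and no treatment other than amputation is labelled. Age, sex, the number of hearts per library and the number of mutant lines are not given in the sources used here. Pairs of values for the genotypes are given wild type first. With 1 library per group, no difference below has a replicate check and no p-value is given.

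Long-chain fatty acids are the main fuel of the adult mammalian heart. They enter cells with the help of carriers such as CD36, are bound in the cytosol by fatty acid binding proteins, are activated to acyl-CoA, and enter mitochondria as carnitine esters, made by CPT1 and taken apart by CPT2. In the matrix, acyl-CoA dehydrogenases and the mitochondrial trifunctional protein shorten the chain in repeated turns. Nuclear receptors of the PPAR and ERR families, with the coactivator PGC-1alpha (ppargc1a), regulate these genes in mammals, and the roles given below are known mainly from mammals.

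The libraries held 31618442 to 35026983 counts and were brought to scaled CPM with TMM factors. Cardiomyocyte markers had a summed level of 54228 and 58530 scaled CPM in uninjured hearts and of 27720 and 26703 at 3 dpa, so the labelled tissue was present in all 4. Hepatocyte markers set the wild-type uninjured library apart. Of the 11 hepatocyte markers, 10 (all but tfa) had 28 to 8972 counts there and at most 12 in any other library. The exception, tfa, had 10356 and 1151 counts in uninjured hearts and 14879 and 16268 at 3 dpa. In the order wild type and mutant uninjured, then wild type and mutant at 3 dpa, 0, 5, 4 and 1 of the markers were at 0. For that reason the wild-type injury comparison is also given with the mutant uninjured library as its reference. Adipocyte markers other than fabp4a were scarce, and plin1, a lipid droplet protein of fat cells, had at most 2 counts in any library.

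Of all counts in uninjured hearts, the fatty acid genes held 0.396% (Wilson 95% interval, 0.393 to 0.398%) for wild type and 0.448% (0.446 to 0.450%) for the mutant. At 3 dpa these shares were 0.178% (0.177 to 0.180%) and 0.218% (0.216 to 0.219%). The summed scaled level was 2.67-fold lower at 3 dpa in wild type and 2.56-fold lower in the mutant. Most single genes followed, and cpt1aa, at a higher level in both 3 dpa libraries, did not. A gene was called when its log2 ratio between 2 libraries was at least 1 in size (2-fold) and the exact 95% interval of its counts excluded no change. Genes were tested when they had at least 1 scaled CPM in at least 1 library, which 9 of the 10 did. These 9 had between 468 and 57178 counts per library, and the half-width of the Wilson interval of each level was at most 9.07% of the value. All intervals here describe counting error alone. PCR copies could not be told from separate molecules, so the intervals may be too narrow even for that.

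**Figure D1:**
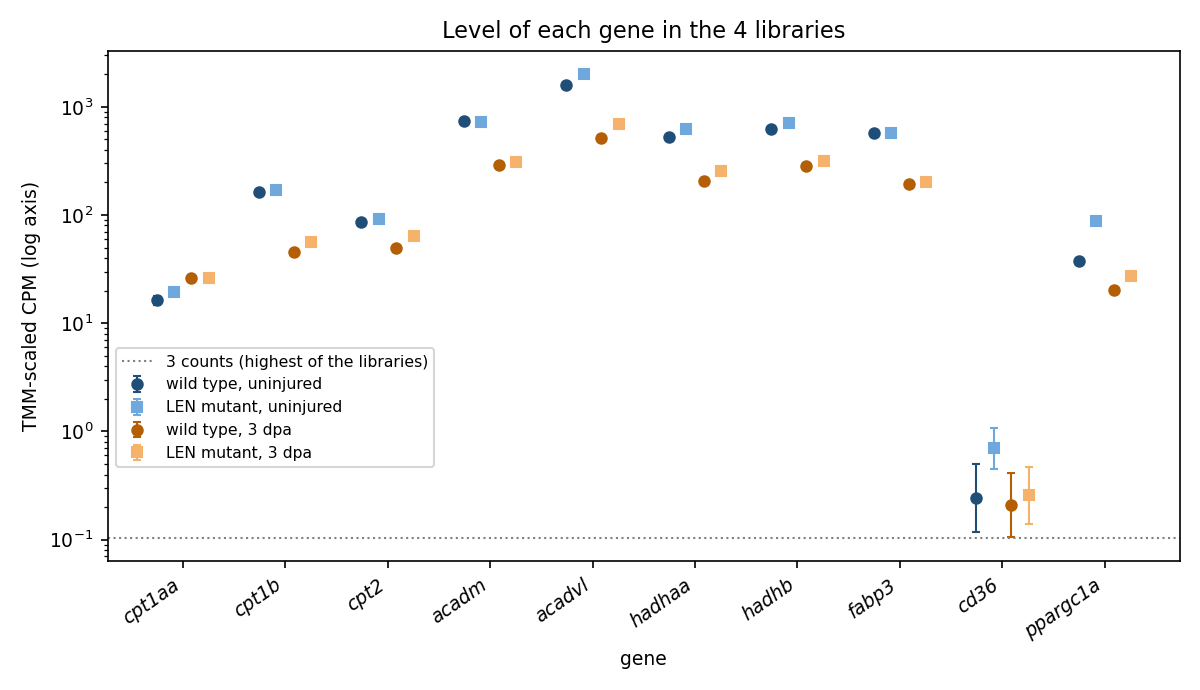
TMM-scaled CPM on a log axis of each of the 10 genes in the 4 libraries, with Wilson 95% counting intervals as bars. The 3 dpa libraries lie below the uninjured libraries for 8 of the 9 tested genes and above them for cpt1aa, while cd36 lies close to the level of 3 counts, drawn for the library where that level is highest.

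Uptake was represented by cd36 and fabp3. The gene cd36 (ENSDARG00000032639), which encodes a membrane receptor that takes up long-chain fatty acids, was barely detected. It had 7 and 20 counts in uninjured hearts, and 8 and 10 counts at 3 dpa. These are 0.243, 0.698, 0.209 and 0.257 scaled CPM, all below the limit of 1, so cd36 was not tested. Its counting intervals included no change for injury in wild type (log2 ratio -0.18, -1.88 to 1.47) and for genotype at 3 dpa (0.24, -1.19 to 1.85). They did not include it for injury in the mutant (-1.26, -2.70 to -0.28) or for genotype in uninjured hearts (1.32, 0.22 to 3.00). Both of the latter share the mutant uninjured library with its 20 counts.

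The gene fabp3 (ENSDARG00000023290) encodes the heart type of fatty acid binding protein. It stood at 573 and 567 scaled CPM in uninjured hearts and at 194 and 202 at 3 dpa. Both 3 dpa libraries were low and the genotypes were close at each stage. With injury it fell in wild type, with a log2 ratio of -1.56 (-1.60 to -1.52), a 2.96-fold difference, and in the mutant, with -1.49 (-1.53 to -1.45), a 2.81-fold difference. The gene fabp4a, which encodes another fatty acid binding protein, stood at 582 and 529 scaled CPM uninjured and at 598 and 519 at 3 dpa. Of the counts of the pair, fabp3 held 49.6% (49.1 to 50.2%) and 51.8% (51.2 to 52.3%) in uninjured hearts. Its share at 3 dpa was 24.5% (24.0 to 25.0%) and 28.0% (27.5 to 28.5%).

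The carnitine shuttle held cpt1b, with the largest fall in wild type among the 9 tested of the listed genes, and cpt1aa, which differed in the other direction. CPT1 enzymes form acylcarnitine on the outer mitochondrial membrane and are inhibited by malonyl-CoA. The gene cpt1b (ENSDARG00000058285), whose mammalian counterpart is the muscle form, stood at 164 and 169 scaled CPM in uninjured hearts and at 45.7 and 56.1 at 3 dpa. It fell in wild type, with a log2 ratio of -1.84 (-1.92 to -1.77), a 3.59-fold difference, and in the mutant, with -1.59 (-1.66 to -1.52), a 3.01-fold difference. In contrast, cpt1aa, whose mammalian counterpart is the liver form, stood at 16.3 and 19.3 scaled CPM uninjured and at 26.3 and 26.4 at 3 dpa. Its log2 ratio was 0.69 (0.54 to 0.86) in wild type and 0.45 (0.30 to 0.60) in the mutant, positive in both and short of the threshold. Leukocyte and fibroblast or epicardial markers were higher at 3 dpa in the same libraries, with summed levels 3.51- and 6.54-fold higher in wild type and 3.46- and 6.17-fold higher in the mutant. Their part in the level of cpt1aa was not tested.

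The other copy of the liver form, cpt1ab (ENSDARG00000062054), fell like cpt1b, with log2 ratios of -1.69 (-1.74 to -1.64) in wild type and -1.55 (-1.59 to -1.51) in the mutant. The make-up of CPT1 counts therefore differed with injury. The share of cpt1aa among the counts of the 3 genes was 2.88% (2.63 to 3.15%) and 2.60% (2.39 to 2.82%) in uninjured hearts. It was 13.7% (13.0 to 14.6%) and 9.69% (9.14 to 10.3%) at 3 dpa. The share of cpt1b was 29.1% and 22.7% uninjured and 23.9% and 20.6% at 3 dpa, and that of cpt1ab was 68.1% and 74.7% uninjured and 62.4% and 69.7% at 3 dpa. The mutant libraries thus had the larger cpt1ab share at both stages. Shares in 1 library also depend on transcript length, which was not used here, and reads shared by the copies could be counted for either.

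The gene cpt2 (ENSDARG00000038618) encodes the inner membrane enzyme that returns acylcarnitine to acyl-CoA. It stood at 86.3 and 91.9 scaled CPM in uninjured hearts and at 49.6 and 64.4 at 3 dpa. Its log2 ratios of -0.80 (-0.89 to -0.71) in wild type and -0.51 (-0.59 to -0.43) in the mutant were negative and did not reach the threshold. Its difference was smaller than that of cpt1b in each genotype, and the intervals of the pair did not overlap.

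**Figure D2:**
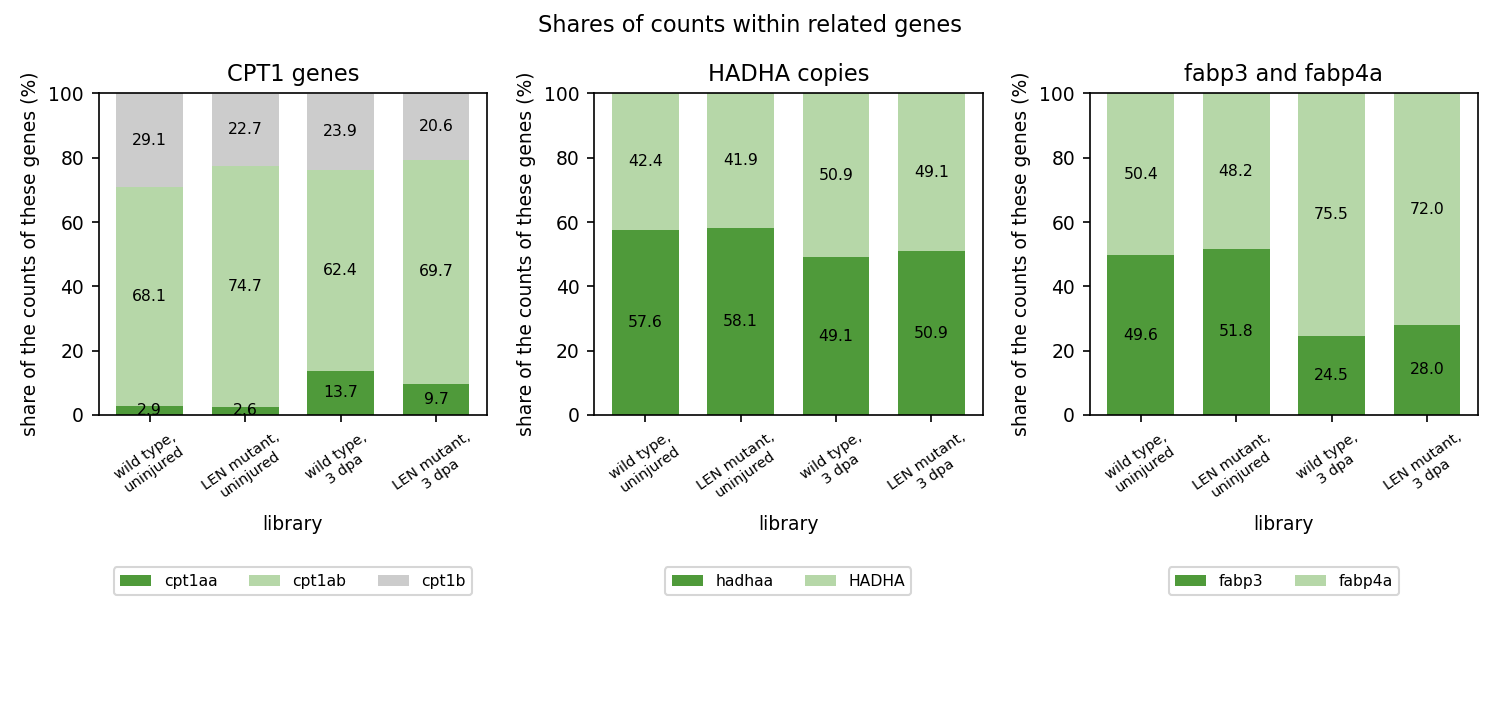
Shares, in percent, of the counts of related genes in each library: the 3 CPT1 genes, hadhaa beside the other gene ID with the symbol HADHA, and fabp3 beside fabp4a. The cpt1aa share is 2.6 to 2.9% in the uninjured libraries and 9.7 to 13.7% at 3 dpa, and the fabp3 share is 24.5 to 28.0% at 3 dpa against 49.6 to 51.8% uninjured.

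The acyl-CoA dehydrogenases carry out the first step of each turn of oxidation. The very long-chain enzyme gene acadvl (ENSDARG00000016687) stood at 1576 and 1995 scaled CPM in uninjured hearts and at 511 and 690.2 at 3 dpa. It fell in wild type, with a log2 ratio of -1.62 (-1.65 to -1.60), and in the mutant, with -1.53 (-1.55 to -1.51), 3.08- and 2.89-fold. The medium-chain enzyme gene acadm (ENSDARG00000038900) stood at 746 and 723 scaled CPM uninjured and at 291 and 307 at 3 dpa. It fell in wild type, with a log2 ratio of -1.36 (-1.39 to -1.32), and in the mutant, with -1.23 (-1.27 to -1.20), 2.56- and 2.35-fold. Both genes were high in the uninjured and low in the 3 dpa libraries, and the mutant had the higher acadvl level at each stage. Among the counts of 4 dehydrogenase genes (acadvl, ACADL, acadm and ACADS), acadvl held 59.9% and 65.4% in uninjured hearts and 54.2% and 59.5% at 3 dpa.

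The trifunctional protein, which carries out the remaining steps on long chains, has an alpha subunit (hadhaa) and a beta subunit (hadhb). In the RefSeq gene list of assembly GRCz12tu the genes for these subunits are direct neighbours, with no gene listed between them. The gene hadhaa (ENSDARG00000057128) stood at 524 and 618 scaled CPM in uninjured hearts and at 208 and 257 at 3 dpa. The gene hadhb (ENSDARG00000102055) stood at 625 and 714 scaled CPM uninjured and at 283 and 315 at 3 dpa. Both were low at 3 dpa, and the wild-type library was the lower at each stage. With injury, hadhaa fell in both genotypes, with log2 ratios of -1.33 (-1.37 to -1.29) and -1.26 (-1.30 to -1.23). So did hadhb, with -1.14 (-1.18 to -1.11) and -1.18 (-1.21 to -1.15). The number of hadhaa counts per hadhb count was 0.839 and 0.866 in uninjured hearts and 0.735 and 0.819 at 3 dpa. The other gene ID with the symbol HADHA (ENSDARG00000060594) had log2 ratios of -0.84 in both genotypes and was not called. The share of hadhaa among the counts of both copies was 57.6% and 58.1% uninjured and 49.1% and 50.9% at 3 dpa.

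The regulator ppargc1a (ENSDARG00000067829) is a coactivator that drives mitochondrial biogenesis and fatty acid oxidation genes. It had the largest difference between the genotypes among the 9 tested of the listed genes. It stood at 37.7 and 87.4 scaled CPM in uninjured hearts and at 20.2 and 27.6 at 3 dpa. The mutant uninjured library stood above the other 3, which lay within 20.2 to 37.7 scaled CPM. With injury it fell in the mutant by a log2 ratio of -1.66 (-1.77 to -1.56), and in wild type its log2 ratio was -0.90 (-1.04 to -0.77), short of the threshold. In uninjured hearts it was higher in the mutant by a log2 ratio of 1.21 (1.11 to 1.32), a 2.32-fold difference. The mutant's injury comparison and that genotype comparison share the mutant uninjured library. The genotype comparison also rests on the wild-type library that holds hepatocyte transcripts, and their part in it was not tested. At 3 dpa, where hepatocyte markers other than tfa summed to at most 0.901 scaled CPM, the log2 ratio between the genotypes was 0.45 (0.32 to 0.59).

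Counted together, 6 of the 9 tested genes were called lower with injury in wild type, where 6.76% of all tested genes were. The 6 were cpt1b, acadm, acadvl, hadhaa, hadhb and fabp3. In the mutant the same 6 and ppargc1a were called lower, 7 of 9, where 5.62% of all tested genes were. The injury comparisons of the genotypes share no library. None of the 9 was called higher with injury in either genotype. The median log2 ratio of the 9 genes was -1.33 and -1.26 in the genotypes, and over all 16509 tested genes it was 0.03 and 0.04. By the counting interval alone, 8 of the 9 were lower in each genotype, where 33.4% and 32.6% of all tested genes were, and 1, cpt1aa, was higher, where 37.2% and 37.8% were. Scaling by total counts moved the median of all tested genes to 0.29 and 0.35. Under TMM the fatty acid genes' median minus that of every tested gene gave -1.36 and -1.30, and another scaling factor leaves this distance almost as it is by construction. Under total counts 5 were called in wild type, where hadhb had a log2 ratio of -0.87, and 4 in the mutant, where acadm, hadhaa and hadhb had log2 ratios of -0.92, -0.95 and -0.87.

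**Figure D3:**
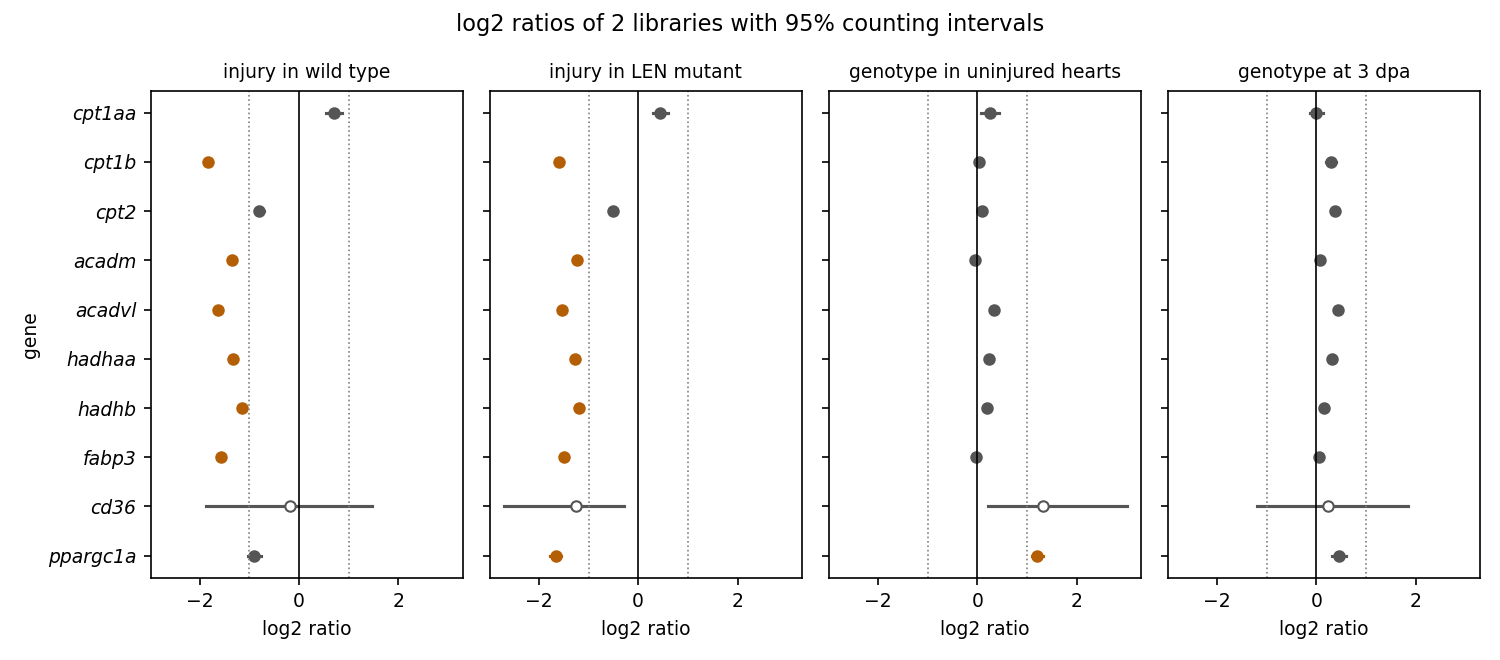
log2 ratios of the 10 genes in the 4 comparisons, with exact 95% counting intervals as bars, dotted lines at the threshold of 1, called genes in orange, and an open circle for cd36, which was below the expression limit. Of the 9 tested genes, 6 in wild type and 7 in the mutant lie left of the threshold for injury, and 1, ppargc1a in uninjured hearts, lies right of it between the genotypes. The untested cd36 also lies left of it for injury in the mutant and right of it in uninjured hearts.

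Markers of several cell types differed between the same libraries, and their part in the injury differences was not tested. The 11 tested cardiomyocyte marker IDs had a median injury log2 ratio of -0.91 in wild type (3 called lower) and -1.17 in the mutant (8 called lower), with ranges of -1.20 to -0.55 and -1.39 to -0.49. One of them, MYL7, a myosin light chain, stood at 13247 and 13361 scaled CPM in uninjured hearts and 6913 and 6326 at 3 dpa. Their summed level at 3 dpa was 0.511 of the uninjured level in wild type and 0.456 in the mutant, and that of the fatty acid genes was 0.375 and 0.390. Set against the cardiomyocyte marker sum, the summed fatty acid genes were 8.02% in the wild-type and 8.52% in the mutant uninjured library, and 5.88% and 7.29% at 3 dpa. In whole hearts, fewer cardiomyocytes and less RNA per cardiomyocyte cannot be told apart. The 13 mitochondrially encoded genes took 16.1% and 16.7% of counts uninjured and 11.3% and 11.9% at 3 dpa. Endothelial markers, of a cell type that takes up fatty acids in mammals, had median injury log2 ratios of -0.47 and -0.48, with 0 of 6 called. Erythroid markers summed to 4335 and 2903 scaled CPM in uninjured hearts and to 9012 and 6897 at 3 dpa.

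With the mutant uninjured library as the reference for the wild-type 3 dpa library, 7 of the 9 genes were called lower, where 8.47% of all tested genes were, and their median log2 ratio was -1.55. The log2 ratio of ppargc1a became -2.11, while acadm stood at -1.31 and cpt1b at -1.88. The lower levels at 3 dpa were therefore present without the library that holds hepatocyte transcripts, with genotype and injury then combined.

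**Figure D4:**
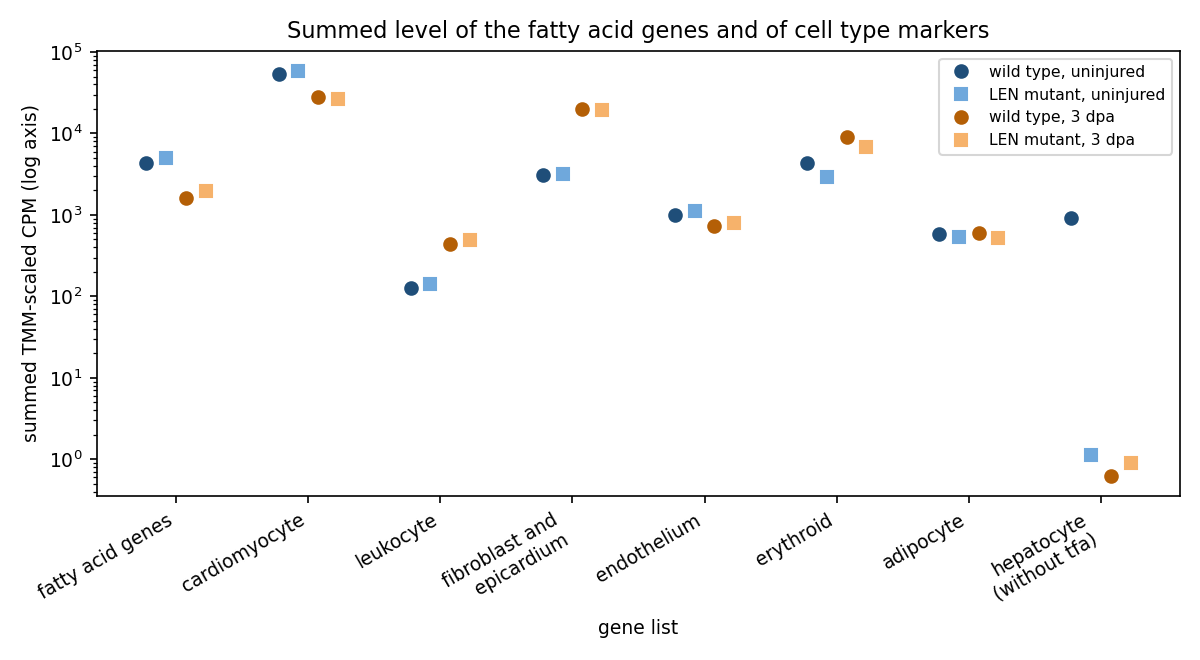
Summed TMM-scaled CPM on a log axis of the 10 fatty acid genes and of the marker lists in the 4 libraries. The fatty acid genes and cardiomyocyte markers are lower at 3 dpa, leukocyte, erythroid and fibroblast or epicardial markers are higher, and hepatocyte markers without tfa reach 909 scaled CPM in uninjured wild-type hearts and 1.12 or less elsewhere.

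Between the genotypes the differences were smaller. In uninjured hearts 1 of 9 tested genes, ppargc1a, was called higher in the mutant, where 3.92% of all tested genes were, and none was called lower, where 4.09% were. At 3 dpa 0 of 9 were called, where 2.24% of tested genes were called higher and 0.769% lower. Below the threshold, all 9 log2 ratios at 3 dpa were positive, from 0.001 for cpt1aa to 0.45 for ppargc1a, with a median of 0.29. By the counting interval alone, 8 of the 9 were higher, where 20.3% of all tested genes were, and 0 were lower, where 18.9% were. Counting intervals narrow with the count, and these genes had high counts. Under relative log expression factors 8 of the 9 ratios were positive and 7 intervals excluded no change. The genes acadvl, at 0.43 (0.41 to 0.46), and cpt2, at 0.38 (0.29 to 0.46), followed ppargc1a. In uninjured hearts 7 of the 9 ratios were positive, with a median of 0.19, and acadm, at -0.04, and fabp3, at -0.02, were the others. By the interval alone 6 were higher, where 25.2% of all tested genes were, and 1, acadm, was lower, where 26.5% were. The 11 tested cardiomyocyte marker IDs had a median genotype log2 ratio of 0.11 in uninjured hearts, with a range of -0.12 to 0.75 and 8 above 0. At 3 dpa their median was -0.06, with a range of -0.41 to 0.36 and 4 above 0. The part of cardiomyocytes in these differences was not tested.

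Subtracting the wild-type injury log2 ratio from that of the mutant gave a difference past 1 with an interval excluding 0 in 0 of the 9 tested genes, where 3.80% of all tested genes were higher and 1.41% lower in the mutant. It was -0.76 for ppargc1a (-0.93 to -0.59), 0.29 for cpt2 (0.17 to 0.40), 0.26 for cpt1b (0.15 to 0.36) and -0.25 for cpt1aa (-0.46 to -0.03). For acadm, acadvl, hadhaa, hadhb and fabp3 it ran from -0.04 to 0.12. These intervals describe counting error in 4 libraries and not variation between hearts.

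The wider pathway was described with log2 ratios, given in brackets, of 123 other gene IDs in 9 role groups, of which 108 were tested. With injury, 26 were called lower and 4 higher in wild type, and 22 lower and 5 higher in the mutant. Of the genes called higher, FABP7 (ENSDARG00000007697), plin6 and oxct1a reached the limit of 1 scaled CPM only in 3 dpa libraries, where they were high. Of all tested genes, 6.76% and 5.62% were called lower and 13.2% and 14.7% higher. Against the mutant uninjured library, 32 were called lower in the wild-type 3 dpa library, 21 of the 26 among them, and 4 higher, 1 of the 4 among them. Of all tested genes, 8.47% were called lower and 15% higher against that library. The matching overlap over all tested genes was 523 of 1116 lower and 1830 of 2187 higher. Of the pathway genes lower with injury, 16 were called in both genotypes, which is 16 of the 26 in wild type and 16 of the 22 in the mutant. The overlap of the genotypes over all tested genes is not given here. The median log2 ratio of the 108 was -0.57 and -0.51. Of the 26, slc27a2a, ACSBG1 and oxct1b, named after their values were seen, had 155, 88 and 138 counts in the uninjured wild-type hearts that also held hepatocyte transcripts. In every other library they had at most 19 counts, below 1 scaled CPM. They were therefore tested only through the library where they were high, and the part of the hepatocyte transcripts was not tested. In the mutant 0 of these 3 fell.

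In the mitochondrial oxidation group, log2 ratios were negative for 22 of 22 genes in both genotypes. In wild type 8 fell, and in the mutant 4 fell, with median log2 ratios of -0.89 and -0.83. Of all 16509 tested genes, 7924 and 7794 had negative log2 ratios, and 6.76% and 5.62% were called lower. The counts of the other role groups below stand beside the same shares, and several rest on 1 or 2 genes. In wild type the largest falls were those of ACADS, the short-chain dehydrogenase (-1.31, 89.7 to 36.3 scaled CPM), ETFB, which carries electrons from the dehydrogenases (-1.26, 361 to 151), and DECR1, which prepares unsaturated chains (-1.15, 55.7 to 25.1). ACADS and ETFB were also negative in the mutant, where their log2 ratios were higher by 0.31 and 0.29 and did not reach the threshold. In the mutant they were those of MMUT (-1.21, 244 to 105), ACADL, a long-chain dehydrogenase (-1.04, 247 to 120.1), and DECR1 (-1.04, 52.1 to 25.3). In the carnitine shuttle group 4 of 10 fell in wild type and 3 of 10 in the mutant. Besides cpt1ab, these included BBOX1, which makes carnitine (-1.58 in wild type and -1.16 in the mutant), and CRAT (ENSDARG00000040248, 1 of 2 IDs with that symbol, -1.24 and -1.07), which buffers acetyl-CoA. The other CRAT ID (ENSDARG00000016545) and cratb had log2 ratios of -0.84 and -0.04 in wild type and were not called in either genotype. Of the 13 peroxisomal genes 0 fell in wild type and 2 fell in the mutant, with medians of -0.47 and -0.29.

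Acyl-CoA synthesis and uptake split by gene. The gene acsl1b (ENSDARG00000003854), a long-chain acyl-CoA synthetase, fell from 1484 to 332 scaled CPM in wild type (-2.16, -2.19 to -2.13) and from 2252 to 483 in the mutant (-2.22, -2.24 to -2.20). ACSL1, another synthetase gene, fell in the mutant (-1.09), and ACSL3, a synthetase of lipid droplets and the endoplasmic reticulum, rose in wild type (1.27, 20.2 to 48.7 scaled CPM), a call lost against the mutant uninjured library (0.81). LPL (ENSDARG00000087697, 1 of 2 IDs with that symbol), the lipase that releases fatty acids from lipoproteins, fell in both genotypes (-1.49 and -1.58). The other LPL ID (ENSDARG00000098720) had a log2 ratio of -0.47 in wild type and was not called in either genotype. In all, 2 of 10 tested uptake genes fell and 0 rose in wild type, and 1 fell and 1 rose in the mutant. Among those that fell in wild type, slc27a2a was tested only through the wild-type uninjured library, where it was high. The uptake gene that rose, FABP7 (ENSDARG00000007697), was tested only through the mutant 3 dpa library, where it was high.

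Of 10 tested genes of malonyl-CoA and pyruvate dehydrogenase control, 5 fell in each genotype and none rose. PDK2 (ENSDARG00000059054, 1 of 2 IDs with that symbol), a kinase that switches off pyruvate dehydrogenase, went from 240 to 25.3 scaled CPM in wild type (-3.24, -3.34 to -3.15) and from 190 to 53.0 in the mutant (-1.84, -1.91 to -1.76). The other PDK2 ID (ENSDARG00000020876) fell in both genotypes (-1.88 and -1.28). ACACB, which makes the malonyl-CoA that inhibits CPT1, fell in wild type (-1.34) and in the mutant (-1.43), and so did MLYCD, which degrades malonyl-CoA (-1.97 and -2.17). Enzymes with opposite effects on CPT1 were thus both lower at 3 dpa.

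Among 17 tested regulators, 2 fell and 1 rose in wild type, and 4 fell in the mutant. LPIN1, a coactivator and phosphatidate phosphatase, fell in both genotypes (-1.94 and -1.53), and PPARA (ENSDARG00000054323), the fatty acid receptor listed without its copy letter, did so too (-1.36 and -1.56). ESRRA, the estrogen-related receptor alpha that works with PGC-1alpha, stood at 50.8 and 83.8 scaled CPM in uninjured hearts and at 33.9 and 31.4 at 3 dpa. It fell in the mutant (-1.42, -1.52 to -1.32) and had a log2 ratio of -0.58 in wild type. Like ppargc1a, ESRRA was highest in the mutant uninjured library, as were other genes, among them PPARA, acsl1b and the cardiomyocyte marker RYR2. The ppargc1a paralogue ppargc1b had log2 ratios of -0.66 and -0.95.

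Of 12 tested storage and lipolysis genes, 2 fell and 1 rose in wild type, and 1 fell and 2 rose in the mutant. The gene that rose in wild type, plin6, also rose in the mutant. It was tested only through the mutant 3 dpa library and stood at 0.704 scaled CPM in the wild-type 3 dpa library. ANGPTL4, an inhibitor of lipoprotein lipase, fell in wild type from 22.5 to 10.8 scaled CPM (-1.06, -1.24 to -0.88). Against the mutant uninjured library this call was lost (-0.56, -0.76 to -0.37). In the mutant it stood at 15.9 uninjured and at 28.0 at 3 dpa, and g0s2, an inhibitor of the main fat lipase, fell there (-1.03). Of 7 tested genes listed under ketone body use, 1 fell and 1 rose in wild type, and 2 rose in the mutant. One that rose in the mutant, oxct1a, stood at 0.140 scaled CPM in the mutant uninjured library. It was tested only through 3 dpa libraries, where it was high. The gene that fell was oxct1b, named above for its counts in the library that holds hepatocyte transcripts, the only library through which it was tested. ACAT2, an acetyl-CoA thiolase of the cytosol, was the gene that rose in wild type (1.39) and the other that rose in the mutant (1.62).

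**Figure D5:**
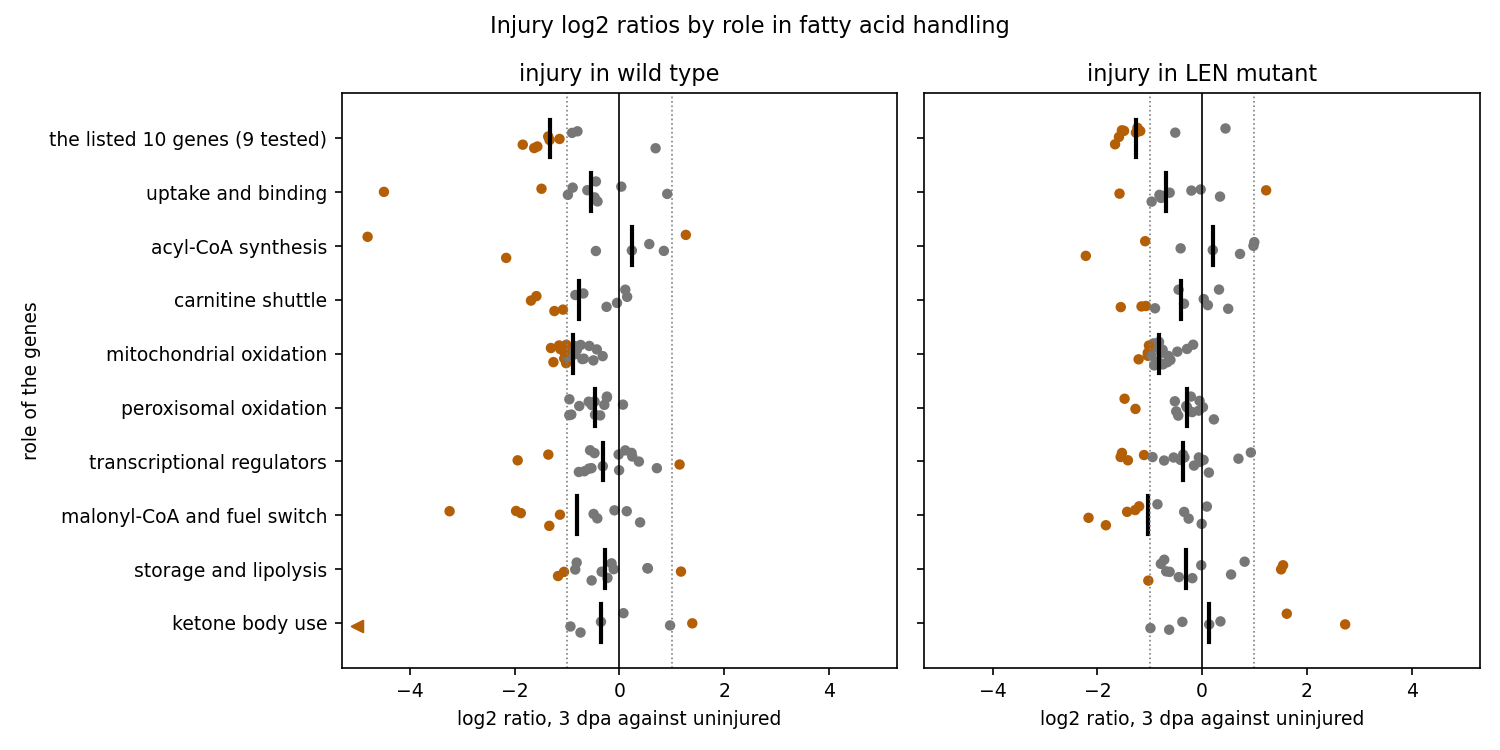
Injury log2 ratios of the tested fatty acid genes by role in wild type (left) and the LEN mutant (right), 1 point per gene, with medians as black bars, called genes in orange, dotted lines at the threshold of 1, and a triangle at the axis end for a gene beyond it. All 22 mitochondrial oxidation genes lie left of 0 in both panels, and the medians of the 9 tested of the 10 listed genes are -1.33 and -1.26.

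Between the genotypes, 5 of the 108 other genes were called higher and 4 lower in the mutant in uninjured hearts, and 7 higher and 0 lower at 3 dpa. Of all tested genes, 3.92% and 4.09% were called higher and lower in uninjured hearts, near the shares among the 108, and 2.24% and 0.769% at 3 dpa. Of the 4 lower genes, 3 were slc27a2a, ACSBG1 and oxct1b, tested only through the wild-type uninjured library, where they were high. Of these, oxct1b, with 0 and 11 counts, was among the 7 higher genes at 3 dpa. So was FABP7 (ENSDARG00000007697), at 0.443 and 1.54 scaled CPM, which was tested only through the mutant 3 dpa library. PPARA and lipeb were among those higher at both stages. Their other copies, pparaa and lipea, were not called at either stage. At 3 dpa pparaa had a log2 ratio of -0.28, and lipea stood at 2.16 and 2.02 scaled CPM uninjured and at 2.43 and 2.60 at 3 dpa. PPARA stood at 4.76 and 16.6 scaled CPM in uninjured hearts (1.79, 1.52 to 2.09) and at 1.83 and 5.61 at 3 dpa (1.59, 1.23 to 2.03). The gene lipeb, a hormone-sensitive lipase, stood at 4.31 and 14.1 scaled CPM uninjured (1.69, 1.41 to 2.01) and at 3.68 and 8.49 at 3 dpa (1.19). At 3 dpa PDK2 (ENSDARG00000059054) and ANGPTL4 were also higher in the mutant, by 1.07 and 1.38.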

How the data were processed

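The authors deposited raw read counts per Ensembl gene ID, as whole numbers without normalization. Per the submitters' processing notes HISAT2, featureCounts and the build GRCz11 were used. Their versions and settings (annotation, strandedness, reads that fit several genes) are not given in the sources used here, so counts of close copies or overlapping genes are uncertain. Per the file headers, each library came from first reads of lane 8. Libraries were scaled with TMM in edgeR 4.0.16 (R 4.3.3), and log2 ratios used edgeR's log2 CPM formula with a prior count of 2 (this pulls low genes towards 0). The 16509 of 32520 genes reaching 1 scaled CPM in some library were tested. Each ratio carries an exact 95% conditional binomial (Clopper-Pearson) interval, and the difference of injury ratios a delta-method interval with counts of 0 set to 0.5. No model test was run: with 1 library per group, a test within a genotype or a stage has no residual degrees of freedom, and an additive fit over all libraries, which assumes that genotype and injury do not interact, was left out. The calling was tested on simulated data. A name table gave symbols for 29201 IDs, and a symbol without an exact match was tried without its copy letter. Of 125 other pathway symbols 119 matched. Of the marker symbols, mpx, hbba1 and hbba2 did not match, and mpeg1.1 and mfap4 matched over 2 IDs and were left out. Named other genes were, per role and contrast, the 3 largest called log2 ratios with at least 10 scaled CPM, and any other name was chosen after its values were seen. All genes and lists were chosen with earlier results of these data known. Shares, count ratios and sums over genes also depend on transcript lengths, which were not used, and serve to compare libraries, not genes. Other steps used scipy 1.17.1, numpy 2.4.6 and pandas 2.3.3 in Python 3.11.15, and figures matplotlib 3.10.9. Alternatives were other scalings, prior counts, limits on low counts, a 1.5-fold threshold and libraries without mitochondrially encoded genes.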

Additional observations from a re-analysis of the deposited data

Results flagged for a closer look

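The injury log2 ratio of ANGPTL4 pointed in opposite directions in the genotypes, -1.06 in wild type (95% counting interval, -1.24 to -0.88) and 0.81 in the mutant (0.66 to 0.97). The difference, mutant minus wild type, was 1.87 on the log2 scale (1.63 to 2.11), and it was not tested against variation between hearts. The wild-type ratio rests on the uninjured library that holds hepatocyte transcripts, whose part was not tested. Against the mutant uninjured library, the ratio of the wild-type 3 dpa library was -0.56 (-0.76 to -0.37), in the same direction and short of the threshold. The 4 libraries had 646, 457, 413 and 1089 counts, in the order wild type and mutant uninjured, then wild type and mutant at 3 dpa.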

How the results depend on the processing

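The median injury log2 ratio of the tested fatty acid genes in wild type was -1.33. It was -1.06 under total counts, -1.37 under relative log expression factors, -1.44 under upper quartile factors and -1.24 without the limit on low counts, which adds cd36. With the mutant uninjured library as reference, an alternative chosen after seeing the data, it was -1.55. In the mutant the median was -1.26, and -0.95, -1.32 and -1.39 under those 3 scalings. The called genes there were 7, and 4 under total counts. Without the limit on low counts 2 genes instead of 1 were called between uninjured genotypes, the added gene being cd36. With both directions counted together, a 1.5-fold threshold raised the called pathway genes by its construction. They went from 30 to 58 and from 27 to 61 for injury in wild type and the mutant. For genotype in uninjured hearts and at 3 dpa they went from 9 to 21 and from 7 to 12. The share of all tested genes past 1.5-fold is not given here, so these counts cannot be set against it. Of 290 log2 ratios of the 10 genes under alternatives, 52 left the counting interval of the main value and 0 of the called ratios changed sign. The 290 include ratios without the limit on low counts, which cannot change a ratio. Under total counts, the injury ratio of every tested gene among the 10 left its interval in both genotypes. The uncalled ratio of cd36 for injury in wild type was 0.04 under total counts, and that of cpt1aa between genotypes at 3 dpa was -0.02 and -0.01 under relative log expression and upper quartile factors. Higher genes made up 66.2% and 72.3% of all called genes for injury in wild type and the mutant, 82.5% and 90.6% under total counts, and 57.2% and 61.8% under upper quartile factors. With 1 library per group, no replicate could be left out and no paired analysis was possible. A fit with genotype as a block was not run. Levels under 3 counts, 0.0772 to 0.105 scaled CPM, are beyond this depth.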
